A study of Mus musculus with 2 samples.

Results

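The pericentral Wnt-responsive zonation genes comprise genes that hepatocytes around the central vein express under Wnt and beta-catenin control, together with parts of the signalling route itself. The 9 genes were Glul, Rhbg, Slc1a2, Axin2, Lgr5, Tbx3, Rnf43, Znrf3 and Ctnnb1. They were found on the array by name, through the RefSeq accession that the array files give for each probe, and not by a cut on their values. The 9 were listed with earlier results of these data known. They make up 9 of the 20660 genes that could be named on the array. A total of 12 probes measured them, and every one was well above background on both arrays.

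Liver RNA of CREBH-Tg mice was compared with that of WT mice. The transgene of CREBH-Tg mice is human cDNA for active CREBH (gene Creb3l3), a transcription factor of hepatocytes, expressed mainly in liver. The labels give the strain background C57B6J for both groups, and both had eaten the HFHS diet for 12 weeks. RNA was pooled within each genotype, and 1 Cy3-labelled array was hybridised per pool. The number, age and sex of the pooled mice, and the promoter that drives the transgene, are not given in the sources used here. Since neither genotype was repeated, every difference below is a difference between 2 pools, given by its size and measurement error, with no test.

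In liver, blood runs from the portal vein to the central vein, and hepatocytes along this path divide metabolic work. Endothelial cells of the central vein secrete Wnt ligands and R-spondin, which stabilise beta-catenin in the hepatocytes next to them. Those hepatocytes take up glutamate, and ammonium that passed the periportal urea cycle, and turn them into glutamine. Glul, Rhbg and Slc1a2 serve that last step, Axin2, Lgr5, Tbx3, Rnf43 and Znrf3 are known targets or regulators of the pathway, and Ctnnb1 encodes beta-catenin.

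Promoter sequence of the genes for glutamine synthetase, the glutamate transporter and the feedback inhibitor Axin2 is shown because Glul and Slc1a2 had lower values in CREBH-Tg liver, while Axin2 is the standard reporter of the pathway. Each run holds the 250 bases before the RefSeq start, on the plus strand of GRCm38.p6. Capitals mark a match to CTTTGAT, a form of the site bound by TCF/LEF factors.

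Glul, chr1:153899679-153899928: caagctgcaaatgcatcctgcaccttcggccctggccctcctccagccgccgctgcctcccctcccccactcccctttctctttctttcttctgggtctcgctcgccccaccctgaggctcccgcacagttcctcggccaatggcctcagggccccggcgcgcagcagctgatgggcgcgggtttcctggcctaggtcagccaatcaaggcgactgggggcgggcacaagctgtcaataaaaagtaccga
Slc1a2, chr2:102706188-102706437: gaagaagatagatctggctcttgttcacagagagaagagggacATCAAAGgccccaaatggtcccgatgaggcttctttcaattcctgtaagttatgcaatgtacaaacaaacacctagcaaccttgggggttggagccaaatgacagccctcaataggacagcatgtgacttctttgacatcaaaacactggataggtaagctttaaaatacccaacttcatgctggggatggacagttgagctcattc
Axin2, chr11:108920099-108920348: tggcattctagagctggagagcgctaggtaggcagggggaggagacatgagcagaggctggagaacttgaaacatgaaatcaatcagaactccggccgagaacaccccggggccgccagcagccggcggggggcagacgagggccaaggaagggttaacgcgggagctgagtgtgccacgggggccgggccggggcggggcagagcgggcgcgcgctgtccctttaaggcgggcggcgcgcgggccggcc

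The RefSeq table held 7 promoter windows for 5 of the 9 genes, namely Glul, Slc1a2, Axin2, Rnf43 and Ctnnb1. They were searched on both strands for CTTTGAT and CTTTGAA, and for TGACGTCA and TGACGTG, forms of the site bound by CREB-type factors, and no motif contains another. The 1 match was CTTTGAT on the minus strand of the Slc1a2 window, from 207 to 201 bases before the start. Of 32851 windows of the same length in the table, 3.21% held CTTTGAT, 4.46% CTTTGAA, 1.55% TGACGTCA and 1.65% TGACGTG. A match is a match of letters and was not tested as a binding site.

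Each array held 59305 non-control spots, of which 58.3% were well above background in CREBH-Tg and 55.4% in WT, and 13881 named genes were measured on both arrays. A log2 signal is the log2 of the processed intensity minus that of the array's 75th percentile, and a log2 ratio is the CREBH-Tg log2 signal minus the WT log2 signal. Each ratio was read against 2 errors. Spot noise is the spread of log2 ratios among repeated spots of 1 probe, in 3 equal classes of genes by signal. Its 95% range was ±0.095 for the brightest class, ±0.17 for the next and ±0.40 for the dimmest. The wider scanner error comes from the error that Feature Extraction attaches to each signal, and its 95% range was ±0.40 to ±0.49 for the probes that give the genes' values. Neither covers variation between mice, pools, labelling reactions or hybridisations. Of 8 hepatocyte markers 7 were measured, none in the dimmest class, and their summed level was 1.05 times as high in CREBH-Tg as in WT. Both arrays came from 1 slide and 1 scan.

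Rhbg, the Rh family ammonium transporter of pericentral hepatocytes, stood lowest of the 9. Its processed intensity was 470.5 in CREBH-Tg liver and 895 in WT liver. On the scaled log2 axis this was a signal of 0.61 in CREBH-Tg and 1.43 in WT, a log2 ratio of -0.82 or 1.76-fold lower. The CREBH-Tg pool thus lay below the WT pool by more than either 95% range, ±0.17 for spot noise and ±0.40 for scanner error. Of the 13881 genes, 150 had a log2 ratio at or below that of Rhbg, or 1.08%, and of the 4627 genes in its own signal class 9 did, or 0.195%. Rhbg had 1 probe with 1 spot, so no other probe checks the value. In bulk RNA, fewer pericentral hepatocytes and less Rhbg RNA in each of them cannot be told apart.

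Slc1a2, which encodes the glutamate transporter GLT-1, was measured by 3 probes. The brightest gave a processed intensity of 3738 in CREBH-Tg and 4894 in WT, a log2 ratio of -0.28 or 1.21-fold lower. The other probes gave log2 ratios of -0.30 and -0.14, at intensities of 169.5 and 96.7 in CREBH-Tg and 225 and 115 in WT. All 3 probes lay below 0. The brightest passed its spot noise of ±0.095 and no probe passed the scanner error.

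Glul, glutamine synthetase, had a processed intensity of 26213 in CREBH-Tg and 31207 in WT. The log2 signals were 6.41 in CREBH-Tg and 6.55 in WT, a log2 ratio of -0.14. This exceeded the spot noise of ±0.095 but not the scanner error of ±0.40. Scaling to each array's median put Glul at -0.054, within its spot noise. Of the 3 genes of ammonium and glutamate uptake and glutamine synthesis, Rhbg and Slc1a2 were lower by more than spot noise under all 9 other settings tried, and Rhbg alone by more than scanner error.

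**Figure D1:**
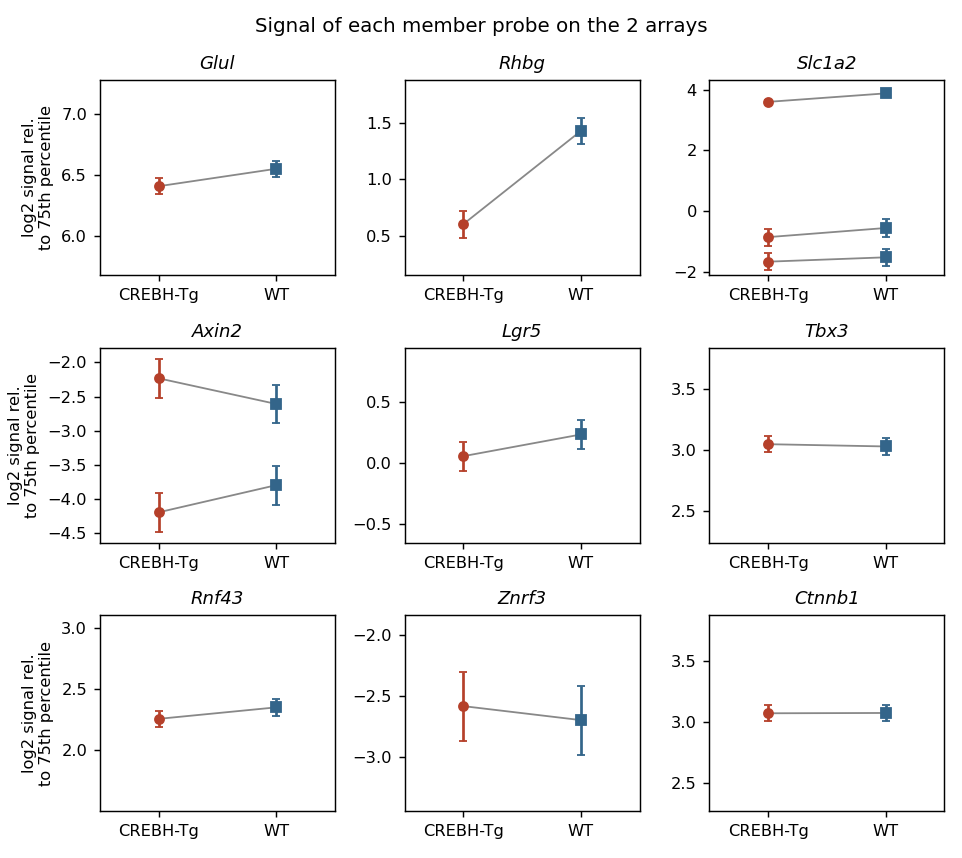
Log2 signal (relative to each array's 75th percentile) of every probe of the 9 genes on the CREBH-Tg array (circles) and the WT array (squares), with 1 line per probe and bars for the 95% range of spot noise on 1 array. Rhbg has a signal of 0.61 in CREBH-Tg and 1.43 in WT, and the probes of Axin2 slope in opposite directions. The vertical span differs between panels, and levels of different probes are not comparable.

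Axin2, a scaffold of the complex that degrades beta-catenin and a direct Wnt target, was dim and its probes disagreed. One probe had an intensity of 65.7 in CREBH-Tg and 54.6 in WT, a log2 ratio of 0.37. The other had 16.9 in CREBH-Tg and 24.0 in WT, a log2 ratio of -0.40. Both values lay within the spot noise of ±0.40 for the dimmest class, so no direction is given for Axin2.

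Lgr5, a receptor for R-spondins that marks pericentral hepatocytes, had an intensity of 321 in CREBH-Tg and 392 in WT. Its log2 ratio of -0.18, or 1.13-fold lower, was just past the spot noise of ±0.17 and within the scanner error. It lay within the spot noise with median scaling, at -0.088, and under normexp background correction, at -0.057. Normexp added an offset of 50 to the intensities, which draws the log2 ratios of dim probes toward 0. The errors, here and below, were computed without that offset, so a normexp value within them is partly built in. Tbx3, a T-box transcription factor, had intensities of 2552 in CREBH-Tg and 2717 in WT. After scaling its log2 ratio was 0.018, within both errors.

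Rnf43 and Znrf3 are related membrane ubiquitin ligases that remove Frizzled receptors from the cell surface and that R-spondins hold in check. Rnf43 had an intensity of 1478 in CREBH-Tg and 1701 in WT, a log2 ratio of -0.094, on the edge of its spot noise of ±0.095. Znrf3 was dim, with an intensity of 51.4 in CREBH-Tg and 51.2 in WT and a log2 ratio of 0.11. Neither ligase passed its spot noise as scaled here, but Rnf43 did under 4 of the 9 other settings, at -0.12 to -0.15. Neither passed its scanner error.

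Ctnnb1, which encodes beta-catenin, was spotted at 2 places. The spots had intensities of 2520.3 and 2673 in CREBH-Tg and 2751 and 2858 in WT. The log2 ratios of the spots were -0.018 and 0.013, with a mean of -0.0025, so the pools differed by less than the spot noise of ±0.095. The array measures RNA and does not show the stability or location of the protein, through which Wnt signals act.

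**Figure D2:**
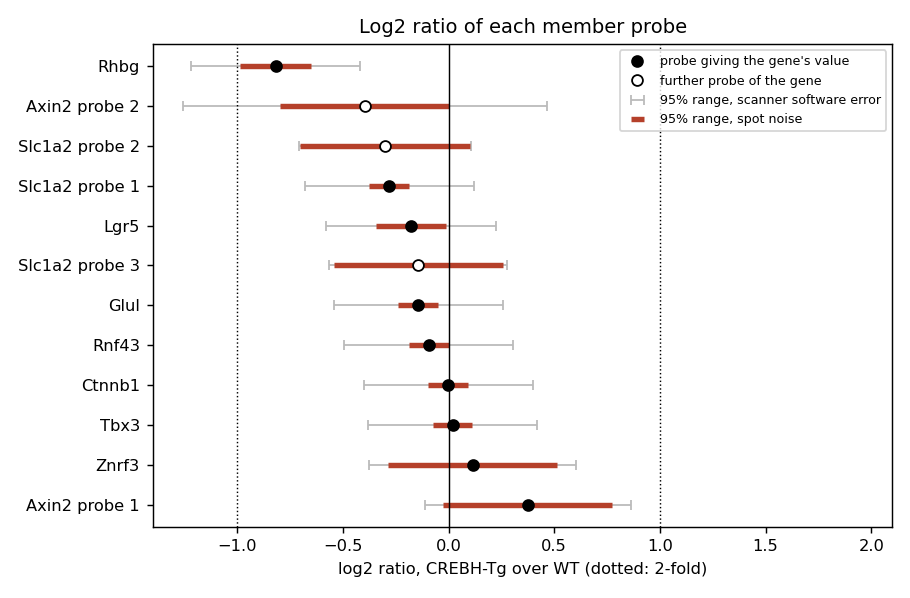
Log2 ratio of CREBH-Tg over WT for each of the 12 probes, with thick bars for the 95% range of spot noise and thin bars for that of the scanner error. Filled points give the gene's value, open points a further probe of the same gene, and dotted lines mark 2-fold. Rhbg, at -0.82, is the 1 probe whose thin bar stays clear of 0.

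In order of log2 ratio the genes ran Rhbg, Slc1a2, Lgr5, Glul, Rnf43, Ctnnb1, Tbx3, Znrf3 and Axin2. The gap between Rhbg and Slc1a2 was 0.54, past the combined spot noise of ±0.19 but within the combined scanner error of ±0.57. No other pair of neighbours differed by more than its combined spot noise, the widest gap being 0.26 between Znrf3 and Axin2 against ±0.57.

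None of the 9 genes was 2-fold higher in CREBH-Tg, a size that 0.663% of all genes reached, and none was 2-fold lower, which 0.67% were. At 1.5-fold the count was 0 higher, against 2.33% of all genes, and 1 lower, Rhbg, against 2.23%. By more than spot noise, 0 were higher and 4 lower (Rhbg, Slc1a2, Lgr5 and Glul), where 21% of all genes were higher and 13.2% lower. That count depended on the scaling: with array medians 2 were higher (Tbx3 and Axin2) and 2 lower (Rhbg and Slc1a2), where 37.3% of all genes were higher and 7.23% lower. With quantile normalization 1 was higher (Axin2) and 5 lower (Rnf43 added), where 16.7% of all genes were higher and 15.5% lower. By more than scanner error, 0 were higher and Rhbg was lower, where 4.34% of all genes were higher and 3.49% lower. The median log2 ratio of the 9 was -0.094, and that of all genes 0.027. Of the 9 genes 6 lay below 0, as did 43.8% of all genes, and the number was 5 to 7 over the settings tried.

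**Figure D3:**
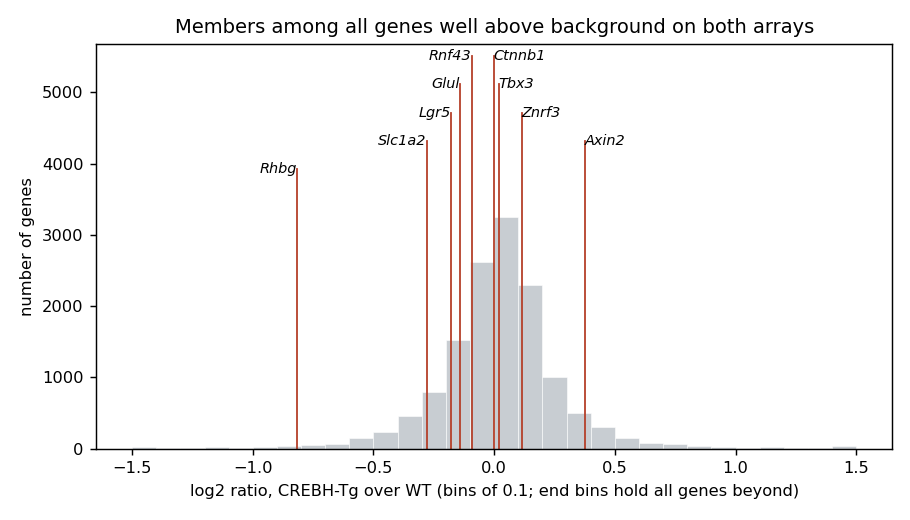
Number of genes (vertical axis) by log2 ratio of CREBH-Tg over WT (horizontal axis, bins of 0.1, with all genes beyond the axis in the end bins) for the 13881 genes measured on both arrays, with a line at each of the 9 genes. Rhbg lies in the thin lower tail at -0.82, and the other 8 lie between -0.28 and 0.37 within the main body.

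The scaling decided the sign of values near 0. Scaling to each array's median moved every log2 ratio up by the same amount and put Ctnnb1 at 0.086, Tbx3 at 0.11 and Rnf43 at -0.0049. With the authors' value table Ctnnb1 was at -0.063, Tbx3 at -0.042 and Rnf43 at -0.15. Over all settings Rhbg stayed between -0.88 and -0.72, Slc1a2 between -0.34 and -0.19, Glul between -0.22 and -0.054 and Lgr5 between -0.24 and -0.057. List medians below are therefore to be read against the median of all genes, 0.027, and single values against their errors. Where no error is printed, the scanner error was about ±0.40 or wider.

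**Figure D4:**
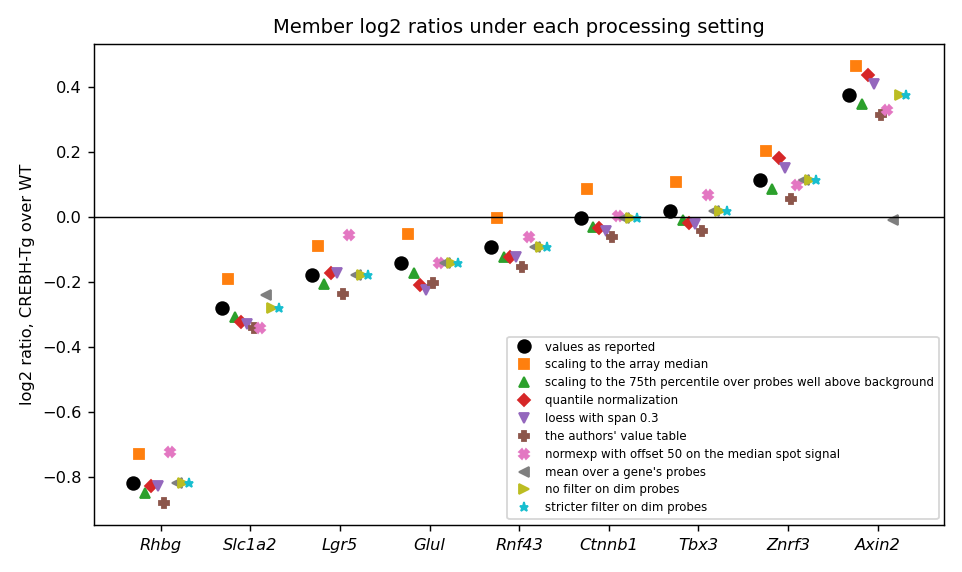
Log2 ratio of CREBH-Tg over WT (vertical axis) of each of the 9 genes (horizontal axis) as reported and under 9 other settings, 1 symbol per setting. Rhbg stays below -0.72 throughout, Ctnnb1 and Tbx3 lie on both sides of 0, and Axin2 is at -0.011 when its probes are averaged.

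The other genes of the pathway were described from lists of their roles. Across 8 lists of Wnt signalling with 106 genes, 73 were measured on both arrays, with a median log2 ratio of -0.0081. Among these 73, none was 2-fold higher and Dkk4 alone was 2-fold lower, beside 0.663% and 0.67% of all genes. By more than spot noise 16 were higher and 10 lower, beside 21% and 13.2% of all genes. By more than scanner error 6 were higher and 5 lower, beside 4.34% and 3.49% of all genes. Of the genes measured on 1 array only, Wif1 and Wnt10a were higher in CREBH-Tg and Ror1 lower by bounds past 2-fold, all at dim signals. These bounds are approximate and take off no measurement error.

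Of 21 genes for Wnt ligands and their secretion 11 were measured on both arrays, and 7 of these were in the dimmest class. By more than spot noise 2 were higher and 3 lower, beside 21% and 13.2% of all genes. Wnt9b, a ligand of central vein endothelium, had log2 signals of -2.32 in CREBH-Tg and -1.73 in WT, a log2 ratio of -0.59 against a scanner error of ±0.45. Under normexp, whose offset draws dim ratios toward 0, it was -0.33, within that error and its spot noise. Porcn, the acyltransferase that lets Wnt proteins be secreted, had a log2 ratio of 0.44. Wnt2, the other main ligand of those cells, was well above background in CREBH-Tg only, at dim log2 signals of -3.81 in CREBH-Tg and -4.42 in WT. Its bound of 0.32 on the log2 scale, or 1.25-fold, lay within the dimmest class's spot noise of ±0.40, so no direction is given. Wnt10a was also well above background in CREBH-Tg only, at a dim log2 signal of -2.54, with a bound of 1.59 on the log2 scale. Such a bound uses the dimmest signal that still counted as measured on the other array. It takes off no measurement error, so it is approximate and not a firm minimum.

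Among R-spondins and LGR receptors 3 of 6 were measured. Rspo3, the R-spondin of the central vein, was higher, with log2 signals of 0.93 in CREBH-Tg and 0.24 in WT. Its log2 ratio of 0.69, or 1.62-fold, passed both errors (±0.17 and ±0.40), and it was 0.42 under normexp background correction. Lgr4, the R-spondin receptor related to Lgr5, had a log2 ratio of 0.079. Of the 5 central vein endothelium markers measured, Rspo3, Kit and Cdh13 lay above 0 and Wnt9b and Thbd below. The summed level of the list was 6.22 in CREBH-Tg and 5.73 in WT, in units of the 75th percentile. That sum includes Rspo3 itself, so it is no measure of these cells apart from Rspo3, and its direction rests on that gene.

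Among Wnt receptors and coreceptors 9 of 15 were measured, with a median log2 ratio of -0.0081. The receptor tyrosine kinase Ror1 was measured in WT only, at a dim log2 signal of -3.31, and was lower in CREBH-Tg by an approximate bound of 2.36-fold. The coreceptors Lrp5 and Lrp6 were at 0.068 and -0.0081. Fzd5 had log2 ratios of 0.59 and -0.53 at its probes, both dim, so no direction is given. Secreted antagonists were the list with the widest spread, from -1.76 to 0.79 over 6 of 16 genes measured. Dkk4 had log2 signals of -4.05 in CREBH-Tg and -2.29 in WT, 3.38-fold lower, but normexp left 1.45-fold. Dkk3 was 1.72-fold higher. Wif1, Wnt inhibitory factor, was well above background in CREBH-Tg only, by an approximate bound of 5.62-fold, at a dim log2 signal of -1.64.

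All 17 genes of the destruction complex and Dishevelled were measured, with a median log2 ratio of -0.024. None was at 1.5-fold, beside 2.33% of all genes higher and 2.23% lower. Tankyrase (Tnks), which marks Axin for degradation, was dim, with a log2 ratio of -0.54. Under normexp it was -0.28, within its spot noise of ±0.40 and its scanner error of ±0.42. Axin1, the constitutive relative of Axin2, was at 0.23. Gsk3b, a kinase of the complex, was at -0.26, with its 3 probes between -0.26 and -0.073. For TCF/LEF factors and cofactors the median was 0.016 over 12 genes, none at 1.5-fold, beside the same shares of all genes. Tcf7l2, the main TCF factor of liver, was at 0.068 by its brightest probe, and its lowest probe was at -0.98. Bcl9l was dim and at -0.40, or -0.29 under normexp, within its spot noise of ±0.40. Crebbp was at 0.37.

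Wnt target genes outside the 9 went both ways, with a median of 0.039 over 10 measured. The cyclin Ccnd1 was 1.60-fold higher, with log2 signals of 3.10 in CREBH-Tg and 2.42 in WT. Ephb3 had a log2 ratio of 0.46. Myc was dim and 1.95-fold lower, or 1.35-fold under normexp, and the feedback inhibitor Nkd1 had a log2 ratio of -0.35, within its scanner error of ±0.40. Cadherin partners of beta-catenin lay between -0.34 and 0.20, with none past scanner error, beside 4.34% of all genes higher and 3.49% lower.

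**Figure D5:**
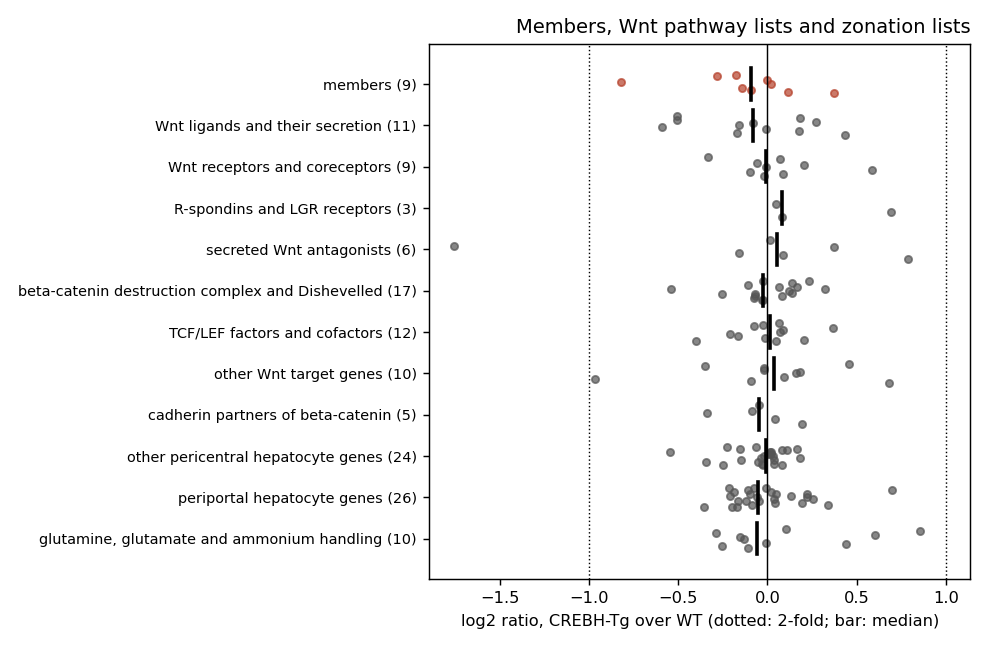
Log2 ratio of CREBH-Tg over WT for the 9 genes (top row), 8 lists of the Wnt pathway and 3 lists of zonation and ammonium handling, with the number measured in brackets, 1 point per gene and a bar at each median. Medians lie between -0.094 and 0.079, and Dkk4 is the 1 point beyond the dotted 2-fold lines.

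Pericentral and periportal hepatocyte genes were compared to describe zonation beyond the 9. Of 24 pericentral genes measured 0 were 2-fold apart, beside 0.663% of all genes higher and 0.67% lower. By more than spot noise 3 were higher and 6 lower, beside 21% and 13.2% of all genes, and the median log2 ratio was -0.0091. Cyp2e1 and Gulo, known from the pericentral zone, were at 0.081 and -0.063, and Oat, which makes glutamate there, at -0.15. Aldh1a1 was 1.46-fold lower, the 1 gene of the list past scanner error, beside 4.34% of all genes higher and 3.49% lower. The nuclear receptor Nr1i3 was at -0.34 with both of its probes below 0. The Cyp2c and Gstm genes of the list have close relatives whose transcripts can bind the same probes.

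Of 26 periportal genes, all measured, 0 were 2-fold apart, beside the same 0.663% and 0.67% of all genes. By more than spot noise 7 were higher and 9 lower, beside the same 21% and 13.2%, and the median was -0.053. Hsd17b6 was 1.62-fold higher. The urea cycle genes Cps1 and Ass1 were at -0.11 and -0.21, and the periportal glutaminase Gls2 at -0.0072. The pericentral median minus the periportal median was 0.043, and between 0.011 and 0.055 over all settings.

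For the handling of glutamine, glutamate and ammonium outside the 9, 10 of 16 genes were measured, with a median of -0.059. Slc38a3, the main glutamine transporter of hepatocytes, had log2 signals of 6.83 in CREBH-Tg and 7.11 in WT, a log2 ratio of -0.29. Slc1a4, a neutral amino acid transporter related to Slc1a2, was 1.36-fold higher. Slc1a5, another relative, was 1.81-fold higher by its brightest probe and at -0.075 by the other, both dim. The Rh family relatives Rhag and Rhcg were not measured on either array.

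Markers of other liver cells were measured beside these genes. The summed level was 125 in CREBH-Tg and 114 in WT for 9 sinusoidal endothelium markers, in units of the 75th percentile. It was 10.2 in CREBH-Tg and 11.5 in WT for 3 of 4 portal endothelium markers, and 1.90 in CREBH-Tg and 2.37 in WT for 6 of 7 cholangiocyte markers, of which Epcam was not measured. Of these 6, 5 were in the dimmest class. The brightest, Spp1, had a log2 ratio of -0.51 and weighs most in that sum. Stellate and Kupffer cells had 6 markers each, all measured. The sum for stellate cells was 4.53 in CREBH-Tg and 4.04 in WT, and that for Kupffer cells 105 in CREBH-Tg and 117 in WT. Kupffer cell markers had a median log2 ratio of -0.069, with 5 of 6 below 0, beside 43.8% of all genes. Marco, at -0.95, and Adgre1, at -0.33, were lower by more than spot noise, beside 13.2% of all genes. Clec4f, Cd5l and Vsig4 lay within their spot noise of ±0.095. The part of these cells in the values of the 9 genes was not tested.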

How the data were processed

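Pooled liver RNA was measured on 1 one-colour Agilent array for CREBH-Tg and 1 for WT. Scans were quantified by Agilent Feature Extraction, version 10.10.1.1, with probes annotated on mm9, per the file headers. Per the file headers, its deposited intensity had local background removed and spatial trends corrected, and arrays were not yet brought to a common scale. The authors' value table holds that intensity times 2.68 for CREBH-Tg and 2.59 for WT, by a rule not given in the sources used here.

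Control spots and 300 outlier spots were left out, spots of a probe were averaged as log2 of the deposited intensity, and each array's 75th percentile was subtracted. Measured probes are those with more than 50% of spots flagged as well above background. A gene took its brightest probe measured on both arrays. RefSeq accessions (GRCm38.p6 table, names only) named 27233 of 55677 probes, and the other 28444 were left unnamed, so the 9 genes may have further probes. Spot noise came from 276 probes with at least 5 spots, and 95% ranges are 1.96 SD. Feature Extraction's error was carried to the log2 ratio and not reduced for repeated spots. No test was run. Steps were run on simulated data for CREBH-Tg against WT over 13881 genes. The 2-fold cut was passed by 100 of 100 genes set at a log2 ratio of 1.5. It was passed by 100 of 100 set at 2.5 and by 0 of 13681 set at 0. Both non-zero sizes were above the cut, which none of the 9 genes reached. Recovery of smaller differences, such as the log2 ratio of -0.82 for Rhbg, was not tested.

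The genes and lists were chosen with earlier results of these data known. The rule was to name all 9 genes and up to 4 genes farthest from 0 in each list. Some of those farthest from 0 were passed over, and others were named for their role in the pathway after their values were seen. A gene that this rule would name is not reported here. Alternatives were other scalings, the authors' table, normexp with an offset of 50, the mean over probes, other filters on dim probes and other fold thresholds. Having 1 array per genotype limits precision throughout. Software was R 4.3.3 with limma 3.58.1, and Python 3.11.15 with numpy 2.4.6, pandas 2.3.3, statsmodels 0.14.6 and matplotlib 3.10.9.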

Additional observations from a re-analysis of the deposited data

How the results depend on the processing

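The log2 ratios of the 9 genes moved by less than the 95% range of their spot noise under all 9 other settings. Calls past spot noise, recounted after seeing the data with the error ranges as reported, came to 2 higher and 2 lower with array medians, and 1 higher (Axin2) with quantile normalization and with loess. The number lower was 5, with Rnf43 added, under quantile normalization, loess, the 75th percentile over measured probes and the authors' values. Of all genes 15.5%, 15.5%, 16.3% and 20.7% were lower there, in that order. Under normexp 3 were lower, beside 9.99% of all genes. Past scanner error, Rhbg alone was lower in every setting. The median of the 9 was -0.0049 with array medians, -0.057 under normexp, -0.12 with the 75th percentile over measured probes, quantile normalization and loess, and -0.15 with the authors' values. The pericentral minus periportal median was 0.011 with quantile normalization, 0.034 with loess, 0.033 under normexp and 0.055 with no filter on dim probes. List counts at 2-fold moved where dim probes or the threshold decided them. With a threshold of 1.5-fold, 1 of the 9 genes was lower, and the number higher was 1 each for R-spondins and LGR receptors, Wnt receptors, Wnt targets, periportal genes and secreted antagonists and 2 for ammonium handling, with 1 lower each for Wnt ligands and Wnt targets. At that threshold 2.33% of all genes were higher and 2.23% lower. With no filter on dim probes, 2 were higher and 1 lower among Wnt ligands, 1 lower among receptors, 1 higher among TCF/LEF factors, and 2 higher and 3 lower among antagonists. With the stricter filter and under normexp, 0 antagonists were lower, since Dkk4 dropped out or shrank. With the values tabulated by the authors, Myc made 1 Wnt target 2-fold lower. No share of all genes at 2-fold is given for these settings, so their list counts have nothing to be read against. Without the filter 20660 genes were taken, including genes not well above background. The 0.663% and 0.67% of measured genes do not apply there. No paired analysis was possible because each genotype has 1 array and the labels number no replicates. Most measured Wnt ligands and both Axin2 probes lay in the dimmest class, where spot noise is widest.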
